A study of Bos taurus with 6 samples.

Results

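The retinoid genes described here are 9 genes that carry, make, bind, clear or sense retinoic acid, the active form of vitamin A. They are RBP4, DHRS9, DHRS3, RDH10, ALDH1A1, ALDH1A2, CRABP2, CYP26B1 and RARB, and every row of the deposited table with one of these gene symbols was taken, which gave 10 of the 26773 transcript clusters because DHRS3 has a pair of them. A transcript cluster is the set of probes that the array combines into a gene's signal. All 9 symbols are also found in the RefSeq annotation of the bovine assembly ARS-UCD2.0. The samples are 6 cultures of primary bovine granulosa cells (GC), 3 of them plated at normal and 3 at high density. Each was grown for 9 days in serum-free alpha-MEM with FSH, IGF-1 and androstenedione and hybridized to its own array. The methods name no retinoid among the additions to the medium. The cells were pools from the follicles of many cows of unknown cycle stage, so a culture stands for a pooled preparation and not for an animal.

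Retinol, the form of vitamin A in blood, travels bound to RBP4 and enters cells through the receptor STRA6. Inside the cell it is oxidized reversibly to retinal by short-chain dehydrogenases and then irreversibly to retinoic acid by the ALDH1A enzymes. CRABP2 carries retinoic acid to the nuclear receptors RARA, RARB and RARG, which act on DNA together with RXR partners, while enzymes of the CYP26 family degrade it. Several genes of this pathway, among them RARB, DHRS3, CRABP2 and the CYP26 genes, are themselves induced by retinoic acid in many cell types. In the ovary, GC take up retinol and are known to make retinoic acid.

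The deposited values are log2 signals made with the RMA procedure, and a log2 fold change is the mean at high density minus the mean at normal density. Differences were tested with limma over all transcript clusters with Benjamini-Hochberg adjustment. A transcript cluster is termed called when its fold change (FC) exceeds 1.5 in either direction and p and adjusted p are below 0.05. Signals are given with their SD over 3 cultures and log2 fold changes with their standard error (SE). The background level, 4.62 on the log2 scale, is the 95th percentile of the 82 reporter control rows, and 51.2% of all transcript clusters had both group means at or below it. Array medians lay between 4.34 and 4.43. High density replicate 2 stood apart, with a limma array weight of 0.289 against weights between 0.824 and 1.66 for the others, and gave the lowest of the 3 high density signals in 44.1% of all transcript clusters. With bulk RNA, fewer cells of a kind and less RNA per cell cannot be told apart.

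Plating density changed 4 of the 9 genes. DHRS3 rose about 4-fold and CRABP2 about 2-fold at high density, whereas DHRS9 fell nearly 5-fold and ALDH1A1 about 2-fold, the last with signals below the background level. RBP4 was higher at high density by less than the FC threshold. RDH10, ALDH1A2, CYP26B1 and RARB did not pass the test. In transcript clusters, 5 of 10 were called, while 7.49% of all transcript clusters were. Of these, 3 were up-regulated, against 3.97% of all, and 2 were down-regulated, against 3.51% of all. The signals of the 2 densities did not overlap in 8 of the 10, compared with 37.3% of all transcript clusters. The median log2 fold change of the 10 was −0.04 and that of all transcript clusters 0.02. These 9 genes were put together with results of these data known, so the counts describe them and are no test of the pathway.

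**Figure D1:**
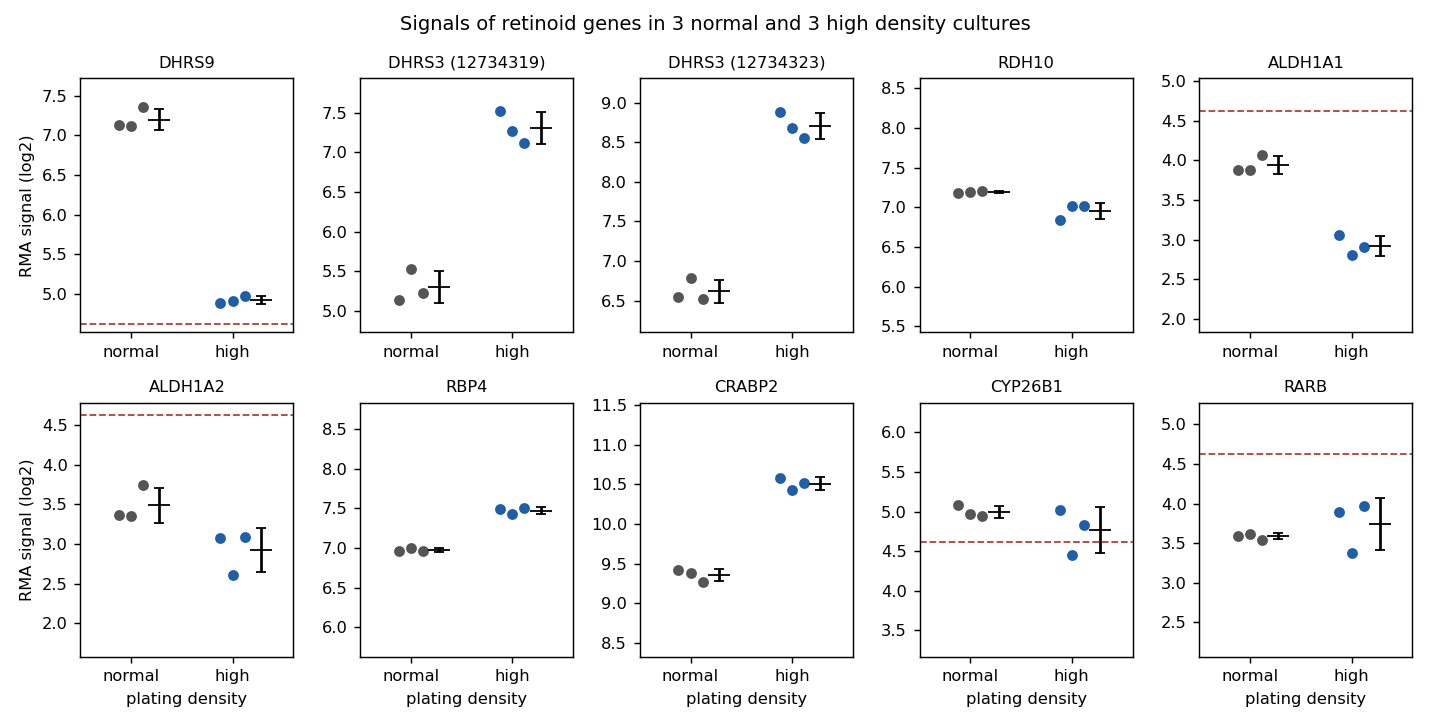
Log2 RMA signals (vertical axis) of the 10 transcript clusters in each normal (grey) and high density (blue) culture, replicates 1 to 3 from left to right, with the mean and SD beside them (n = 3). Each panel spans the same number of log2 units, the dashed line is the background level of 4.62 where it lies in range, and only CYP26B1 and RARB show overlapping groups.

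The carrier of retinol in blood, RBP4 (transcript cluster 12821410), had signals of 6.96, 7.00 and 6.96 in the normal density replicates 1 to 3. At high density they were 7.49, 7.42 and 7.50. The groups were narrow and did not overlap, with a gap of 0.42 between them. This gave a log2 fold change of 0.50 (SE 0.07, limma's adjusted p = 0.00203), a fold change of 1.41 that lies below the FC threshold, so RBP4 was not called. It stayed below the threshold with any single culture left out, between 0.48 and 0.52.

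STRA6, which takes up retinol from RBP4, averaged 9.47 ± 0.08 in the normal and 9.36 ± 0.11 in the high density cultures (SD, n = 3). The densities differed by −0.10 on the log2 scale (SE 0.08, limma's adjusted p = 0.459), and the groups overlapped. LRAT, which esterifies retinol for storage, had means of 4.83 ± 0.08 and 4.57 ± 0.12, close to the background level, and a log2 fold change of −0.26 (SE 0.09, limma's adjusted p = 0.0866). Of the 16 transcript clusters found for uptake, transport and storage genes other than RBP4, 0 were called. At an unadjusted p below 0.05 limma gave 4 and the methods' t-test 3, the latter also with 0 calls. Of the 16, 11 were below the background level at both densities.

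Among the short-chain dehydrogenases, which interconvert retinol and retinal, DHRS9 and DHRS3 moved in opposite directions. DHRS9 (12780359), an enzyme that oxidizes retinol and also acts on 3-alpha-hydroxysteroids, gave signals of 7.13, 7.12 and 7.35 in normal density replicates 1 to 3. In the high density replicates it gave 4.88, 4.92 and 4.98. The lowest normal density culture lay 2.14 log2 units above the highest high density culture, and the spread within either density was at most 0.24. The mean of DHRS9 fell from 7.20 ± 0.13 to 4.93 ± 0.05 (SD, n = 3), so that its log2 fold change was −2.27 (SE 0.09, 95% interval −2.47 to −2.07, limma's adjusted p = 1.42e-05). This is a fall of 4.83-fold and the 8th largest among the 941 down-regulated transcript clusters. The high density mean of 4.93 remained only slightly above the background level of 4.62.

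DHRS3, which reduces retinal back to retinol, is measured by transcript clusters 12734319 and 12734323, both annotated with the same transcript. In 12734319 the signals were 5.14, 5.52 and 5.23 at normal density. At high density they reached 7.52, 7.28 and 7.12. Replicate 2 was the highest of the normal density cultures and replicate 1 the highest of the high density cultures, and the groups lay 1.59 log2 units apart. Its log2 fold change was 2.01 (SE 0.14, 95% interval 1.69 to 2.33, limma's adjusted p = 1.23e-04), a rise of 4.02-fold.

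In 12734323, the signals of DHRS3 were 6.54, 6.78 and 6.53 at normal density. The high density signals were 8.88, 8.68 and 8.55. The order of the cultures at high density was the same as in the other transcript cluster. The log2 fold change of 2.09 (SE 0.11, 95% interval 1.82 to 2.35, limma's adjusted p = 4.52e-05) is a rise of 4.25-fold, and its interval contains the value of the other transcript cluster. Among the 1064 up-regulated transcript clusters these rises ranked 76th and 66th. Both the DHRS3 and the DHRS9 signals were above the background level at either density, so neither fold change is given as a lower bound. The DHRS9 mean of 4.93 at high density was close to that level, however.

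RDH10 (12721746), the retinol dehydrogenase that embryos depend on for retinoic acid, had signals of 7.18, 7.19 and 7.21 at normal density. The high density cultures gave 6.84, 7.02 and 7.02. All high density cultures were lower, by a gap of 0.16, although the difference was small. Its log2 fold change was −0.24 (SE 0.08, limma's adjusted p = 0.0712), with a 95% interval from −0.41 to −0.06 that lies within the FC threshold. RDH10 was therefore not called, and a change beyond 1.5-fold is outside this interval.

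The other genes for the step between retinol and retinal gave 15 transcript clusters, and 0 of them were called by limma or by the methods' t-test, with 4 at an unadjusted p below 0.05 in either test. RDH11, RDH13 and one transcript cluster of ADH6 (12870772) passed the adjusted p in limma, with log2 fold changes of 0.29, 0.30 and 0.41. The whole group ranged from −0.25 to 0.41, with a median of 0.09, and 9 of the 15 were below the background level at both densities. All 15 other symbols that begin with DHRS or RDH were taken after their values had been seen. Of them 1 was called, against 7.49% of all transcript clusters, namely DHRS13. Its mean of 4.38 at normal density was below the background level and that of 4.99 at high density slightly above it (limma's adjusted p = 0.0112).

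**Figure D2:**
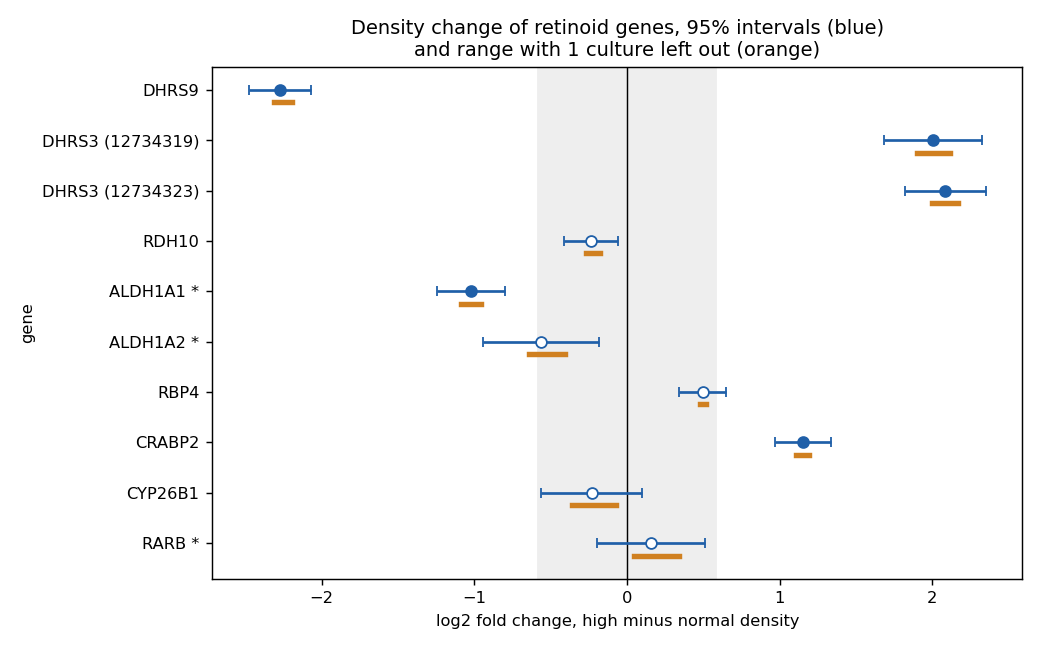
Log2 fold changes, high minus normal density (horizontal axis), with 95% intervals from limma (blue, n = 3 cultures per density) and the range of values with each culture left out (orange). Filled points were called, the grey band is an FC below 1.5, and an asterisk marks genes below the background level at both densities. The DHRS3 pair and CRABP2 lie right of the band, and DHRS9 and ALDH1A1 left of it.

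For the oxidation of retinal to retinoic acid, ALDH1A1 and ALDH1A2 were both measured below the background level, so the sizes of their differences are not reliable. ALDH1A1 (12892676) had signals of 3.88, 3.88 and 4.07 at normal density. The high density signals were 3.05, 2.80 and 2.90. The groups were separated by 0.82 log2 units. ALDH1A1 fell, with a log2 fold change of −1.02 (SE 0.09, limma's adjusted p = 4.50e-04), and the call held with any single culture left out.

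ALDH1A2 (12690749), the main retinoic acid synthesizing enzyme of the embryo, had signals of 3.37, 3.35 and 3.74 at normal density and of 3.08, 2.61 and 3.08 at high density. Normal density replicate 3 was the highest and high density replicate 2 the lowest of the cultures. The log2 fold change of −0.56 (SE 0.16, limma's adjusted p = 0.0503) missed both thresholds narrowly. It moved to −0.43 without normal density replicate 3 and to −0.41 without high density replicate 2. With the array medians made equal it was −0.61 and was called (limma's adjusted p = 0.0264). ALDH1A2 was not called with the replicate number as a block (limma's adjusted p = 0.0253). Nor was it called with the methods' t-test (adjusted p = 0.174 after Benjamini-Hochberg adjustment).

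The third enzyme of this kind, ALDH1A3, had means of 2.99 ± 0.32 and 3.94 ± 0.11 (SD, n = 3), also below the background level. It passed the thresholds, its log2 fold change being 0.95 (SE 0.16, limma's adjusted p = 0.00558), in the direction opposite to that of ALDH1A1. With the methods' t-test ALDH1A3 was not called (adjusted p = 0.0574 after Benjamini-Hochberg adjustment). ALDH8A1, which oxidizes 9-cis-retinal, was called with −0.68 (SE 0.08, limma's adjusted p = 0.00145) from 4.40 ± 0.07 to 3.72 ± 0.11. AOX1, an oxidase that also accepts retinal, differed by 0.09 (SE 0.08, limma's adjusted p = 0.502). None of the ALDH1A, ALDH8A1 and AOX1 signals reached the background level at either density, so these values too show a direction and not a reliable size. All 16 other ALDH symbols were taken after their values had been seen. Of them 3 were called, against 7.49% of all transcript clusters. Only 1 of the 3 was above the background level, the mitochondrial folate enzyme ALDH1L2 with a log2 fold change of 1.81.

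CRABP2 (12836290), the carrier of retinoic acid to its receptors, had signals of 9.42, 9.38 and 9.27 at normal density. At high density they were 10.58, 10.43 and 10.52. The cultures of each density lay within 0.155 log2 units of each other and the groups 1.01 apart. The mean of CRABP2 rose from 9.36 ± 0.08 to 10.51 ± 0.08 (SD, n = 3), so that its log2 fold change was 1.15 (SE 0.08, 95% interval 0.97 to 1.34, limma's adjusted p = 1.16e-04), a rise of 2.22-fold. With single cultures left out the log2 fold change was between 1.11 and 1.19.

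FABP5, which carries retinoic acid to the receptor PPARD, averaged 4.96 ± 0.07 at normal density and rose to 6.79 ± 0.36 (SD, n = 3), by 1.83 on the log2 scale (SE 0.17, limma's adjusted p = 4.50e-04). Its high density signals spread more, with 6.80, 7.16 and 6.43 in replicates 1 to 3. FABP5 was 1 of 3 called among 9 FABP symbols, all 3 up-regulated, against 3.97% of all transcript clusters. The others were FABP7 and FABP3, the latter with a log2 fold change of 0.86. This family was looked up after the values had been seen, and FABP7 was below the background level at normal density. CRABP1, the relative of CRABP2, was below the background level at 3.68 and 3.72, with a log2 fold change of 0.03 (SE 0.09, limma's adjusted p = 0.846). The sign of that value turned with the scaling of the arrays.

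CYP26B1 (12702344), which degrades retinoic acid, had signals of 5.08, 4.97 and 4.94 at normal density. The high density cultures gave 5.02, 4.46 and 4.83, which overlapped with them. High density replicate 2 was below the background level and the other cultures were slightly above it. CYP26B1 had a log2 fold change of −0.23 (SE 0.14, 95% interval −0.56 to 0.10, limma's adjusted p = 0.315), and −0.07 without high density replicate 2. CYP26A1 was below the background level at 2.94 ± 0.15 and 3.02 ± 0.15 (SD, n = 3) and differed between the densities by 0.08 on the log2 scale (SE 0.11, limma's adjusted p = 0.653). CYP26C1 was likewise below it at both densities and not called.

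RARB (12825556), the retinoic acid receptor whose own gene responds to retinoic acid, had signals of 3.60, 3.61 and 3.54 at normal density and of 3.89, 3.37 and 3.96 at high density, all below the background level. High density replicate 2 was the lowest of all 6 cultures and the other high density cultures were the highest. The means differed by 0.16 on the log2 scale (SE 0.15, 95% interval −0.20 to 0.51, limma's adjusted p = 0.528). Without high density replicate 2 it was 0.34 (limma's adjusted p = 0.0120), still below the FC threshold.

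Of the other receptors, RARA had a log2 fold change of 0.19 (SE 0.09, limma's adjusted p = 0.221), with means of 5.68 and 5.87. RXRA had one of −0.14 (SE 0.08, limma's adjusted p = 0.295) and RXRB one of −0.05 (SE 0.11, limma's adjusted p = 0.791). RARG and RXRG were below the background level at both densities, with log2 fold changes of −0.05 and 0.13. The signs of RXRB and RARG turned with limma's array weights and when normal density replicate 2 or high density replicate 2 was left out. Including PPARD, 0 of these 6 receptors were called by limma or by the methods' t-test, and 0 had an unadjusted p below 0.05 in either test. Among 6 co-activators and co-repressors of nuclear receptors 0 were called by limma or by the methods' t-test, although 4 passed the adjusted p in limma and 5 had an unadjusted p below 0.05 in either test. The largest of these differences was that of the co-activator NCOA1, named after its values were seen, with −0.56 (SE 0.07, limma's adjusted p = 0.00125). NCOA1 reached −0.60 and was called when each array was shifted to a common median.

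**Figure D3:**
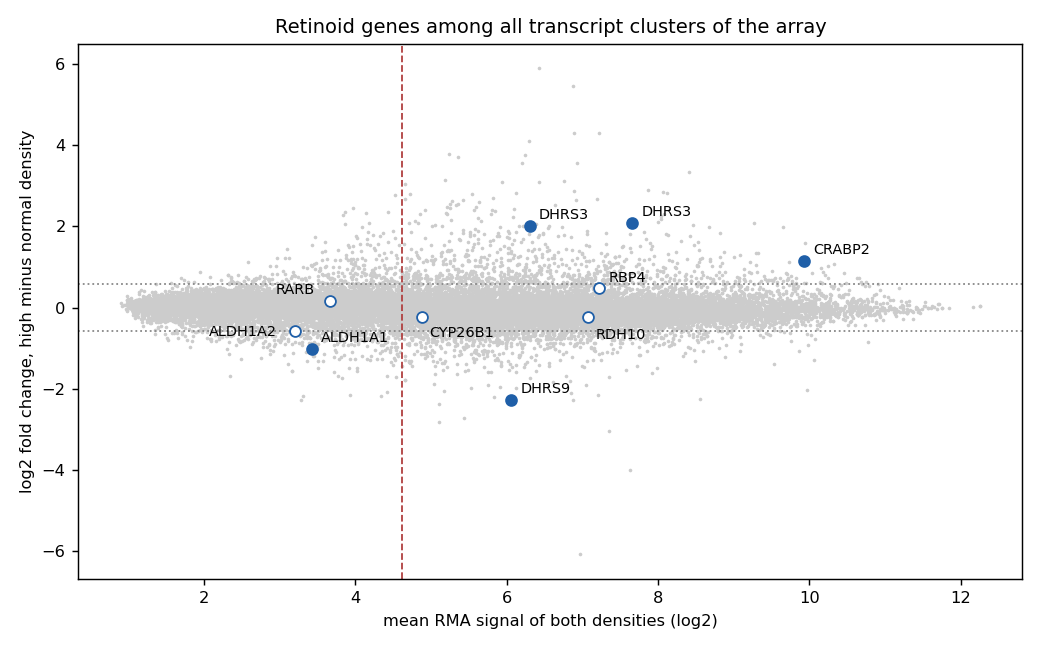
Log2 fold change, high minus normal density (vertical axis), against the mean log2 RMA signal of all 6 cultures (horizontal axis) for each transcript cluster of the array (grey), with the retinoid genes in blue, filled where called. Dotted lines mark an FC of 1.5 and the dashed line the background level of 4.62. DHRS9, the DHRS3 pair and CRABP2 stand outside the dotted lines on the right of the background level, and ALDH1A1 stands outside them on its left.

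In the list of other pathway genes as a whole, 48 of 53 symbols were found, with 50 transcript clusters. In these 3 were called, 2 up-regulated (FABP5 and ALDH1A3) and 1 down-regulated (ALDH8A1). This share is near that among all transcript clusters, 7.49%. The median log2 fold change was 0.06, compared with 0.02 over all transcript clusters, and 28 of the 50 were below the background level at both densities. Among the 22 with a group mean above the background level, FABP5 was the only one called. Of all transcript clusters with such a mean, 1675 of 13077 were called.

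Genes that retinoic acid induces in other cells were listed from general knowledge, and 22 of 23 symbols were found in 23 transcript clusters. Of these 5 were called, while 7.49% of all transcript clusters were. The called ones were 4 up-regulated, against 3.97% of all, and 1 down-regulated, against 3.51% of all. The median log2 fold change was 0.19 over the 23, compared with 0.02 over all transcript clusters. The list was chosen with results of these data known, so its counts are a description. TGM2, a cross-linking enzyme and a classical retinoic acid response gene, had signals of 4.09, 4.37 and 4.26 at normal density, below the background level. Its high density signals were 8.54, 8.19 and 8.32, a rise of at least 13.3-fold when the normal density signals are set to the background level, with limma's adjusted p = 8.94e-06. The homeobox gene HOXA4 averaged 5.01 ± 0.17 at normal density and rose to 6.56 ± 0.19 (SD, n = 3), by 1.55 on the log2 scale (SE 0.12, limma's adjusted p = 2.39e-04). BHLHE40, a transcriptional repressor that responds to many stimuli including hypoxia, had a log2 fold change of 1.03 (SE 0.08, limma's adjusted p = 2.33e-04), and RAI14, an actin-associated protein, one of 0.64 (SE 0.07, limma's adjusted p = 0.00107).

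The gene of this list that fell was RARRES1, a membrane protein named for its response to retinoids. It had signals of 7.66, 7.64 and 7.96 at normal and of 6.15, 6.44 and 6.29 at high density. RARRES1 thus had a log2 fold change of −1.46 (SE 0.12, limma's adjusted p = 2.22e-04), so genes of the list did not move one way. STRA6, CYP26A1 and LRAT, which belong to this list as well as to the pathway, were not called. HOXA5, HOXB1, HOXB4, CDX1 and STRA8 were not called either, and for all 5 of them both group means were below the background level.

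**Figure D4:**
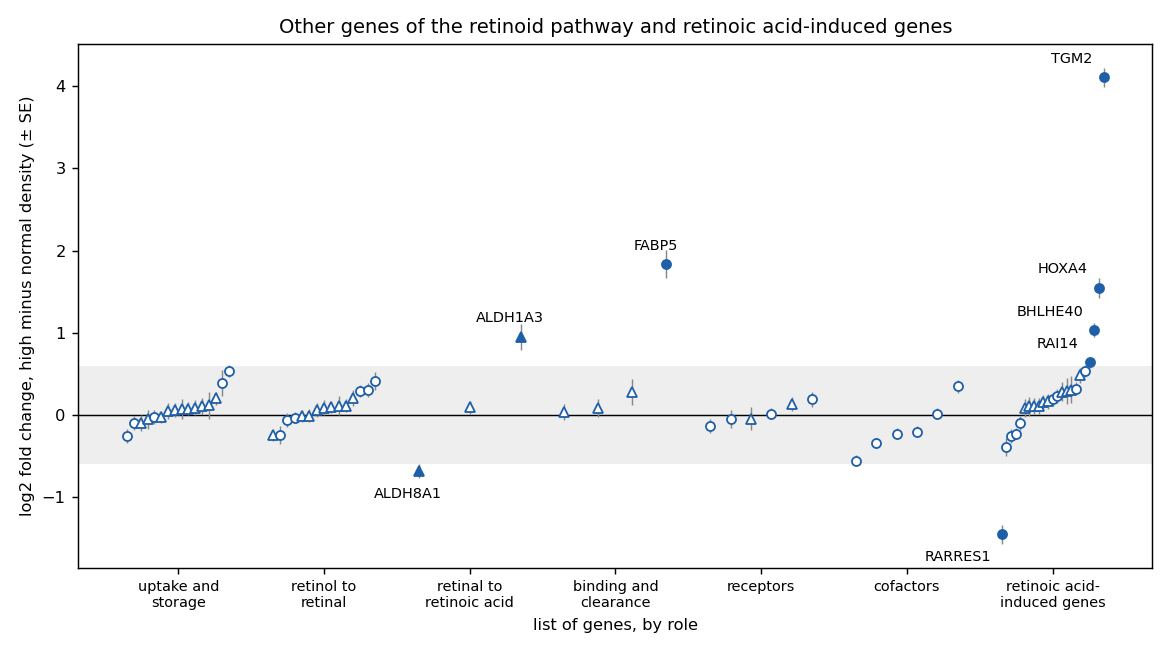
Log2 fold changes, high minus normal density (vertical axis), with SE (n = 3 cultures per density) for the other genes of the retinoid pathway by role and for retinoic acid-induced genes, each list sorted by value. Filled symbols were called, triangles are below the background level at both densities, the grey band is an FC below 1.5, and genes in both kinds of list are drawn in each. Most genes lie in the band. TGM2, whose normal density signals were below the background level, is drawn at its measured difference and lies highest.

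Replicate spread among the retinoid genes was larger at high density in 9 of the 10 transcript clusters, as it was in 68.4% of all. High density replicate 2 was the lowest of the high density cultures in 6 of the 10, compared with 44.1% of all transcript clusters. CYP26B1, RARB and ALDH1A2 had the largest SD at high density, 0.29, 0.32 and 0.27, and all have signals near or below the background level. For DHRS9 and RBP4 the SD at high density was 0.05 and 0.04, although the DHRS9 mean of 4.93 was also near that level. The DHRS3 pair had an SD of 0.21 and 0.17 at means of 7.30 and 8.70. Without high density replicate 2 the same 5 transcript clusters were called, with log2 fold changes of −2.27 for DHRS9, 2.02 and 2.10 for DHRS3, 1.19 for CRABP2 and −0.96 for ALDH1A1.

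Signals centred on their mean over the 6 cultures were compared by Euclidean distance, as a description in which density accounts for most of the likeness. The profile nearest to DHRS9 was that of SLC43A2, an amino acid transporter, at a distance of 0.24 log2 units, followed by SUSD4 and NRG1 at 0.24 and 0.34. Both DHRS3 transcript clusters were nearest to SLC2A3, a glucose transporter, at 0.29 and 0.24. Next to the first were INSL3 and SEMA3F at 0.31 and 0.35, and next to the second FGF11 and LOXL4 at 0.26 and 0.28. CRABP2 was nearest to ABCC3, RYR1 and DAAM2, at 0.061, 0.065 and 0.0805.

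The label of the cells was checked with marker genes. All 11 GC markers had a group mean above the background level. With density 6 of them fell, against 3.51% of all transcript clusters, and 1 rose, HSD17B1, against 3.97% of all. AMH, GATA4, NR5A1 and KITLG were not called. The mean signal of the list was between 7.44 and 7.65 in the normal and between 6.65 and 6.76 in the high density cultures. HSD17B1 was below the background level at normal density. With those signals set to that level it rose by at least 1.78-fold (limma's adjusted p = 5.9e-04). CYP19A1, whose high density signals were below the background level, fell by at least 3.70-fold when these are set to that level, and FSHR and INHA fell by 2.21 and 2.16 on the log2 scale. DHRS9 and ALDH1A1 fell as these 6 GC markers did, whereas DHRS3 and CRABP2 rose. The part of the GC markers in the retinoid gene changes was not tested. Markers of leukocytes, 7 of 7, and of red blood cells, 6 of 6, were below the background level at both densities, as were 7 of 8 endothelial markers, all but VWF, and 3 of 5 markers of surface epithelium, all but MSLN and CDH1. Of these 4 lists limma called 0 markers, with 2 leukocyte, 1 red blood cell, 3 endothelial and 1 surface epithelium marker at an unadjusted p below 0.05. The methods' t-test called 0 as well, with 1, 0, 3 and 3. These lists do not hold the hemoglobin gene HBA, the keratins KRT8 and KRT18 or the claudin CLDN5. The paper reports all of these among its top up-regulated genes, so the lists do not cover every gene of such cells. The endothelial marker KDR was called without high density replicate 3. The theca markers CYP17A1 and GLI1 were below the background level and NR2F2 was not called at means of 6.47 and 6.40. INSL3, a hormone made by theca cells, averaged 7.20 ± 0.06 at normal density and rose to 9.02 ± 0.15 (SD, n = 3), by 1.82 on the log2 scale (SE 0.09, limma's adjusted p = 3.88e-05), and its part in the retinoid gene changes was not tested.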

How the data were processed

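RNA from 6 GC cultures, 3 per plating density, had been hybridized to Affymetrix bovine gene arrays. The authors processed the scans in Expression Console with the RMA procedure (background reduction, normalization between arrays, gene-level summary). As deposited, the values are log2 signals of 26773 transcript clusters, with 0 columns of other samples. No further normalization was applied. RMA pulls arrays to a common distribution, so a shift of all genes together would not be seen. The authors' build and probe annotation are not given in the sources used here. Rows were matched by gene symbol.

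The densities were compared in R 4.3.3 by limma 3.58.1, using lmFit and eBayes without covariates, the Benjamini-Hochberg adjustment over all 26773 rows and the thresholds of the methods. The methods' t-test is their analysis of variance for 2 groups. Exact permutation tests were not used, since 3 against 3 cultures cannot reach a p under 0.1. The number of arrays limits the precision. The methods describe the 6 samples as GC preparations, each a pool of cells from many cows, so p-values measure the spread between pooled preparations and not between animals.

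The genes and lists were chosen with earlier results of these data known. Named are all rows of the 9 genes, called genes of the pathway and retinoic acid-induced lists, the main receptors and carriers, and for each called gene above the background level the 3 nearest profiles. Others were named after their values were seen, among them NCOA1, RDH11, RDH13, ADH6, DHRS13, ALDH1L2, FABP3, FABP7 and single markers. The scripts were tested on simulated data. Figures were drawn with matplotlib 3.10.9. Sequences, qPCR and hormone measurements were not analysed here. Some list genes are not reported here by name, although they enter the counts.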

Additional observations from a re-analysis of the deposited data

How the results depend on the processing

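The alternatives were the replicate number as a block, limma's array weights, eBayes with robust and trended variances, the methods' t-test, a shift of each array to the same median, a filter at the background level and leaving out each culture in turn. Over these 12 alternatives DHRS9, both DHRS3 transcript clusters and CRABP2 were called every time, and ALDH1A1 in the 11 that could test it, since the background filter removes it. The number of retinoid transcript clusters called was 5 with any culture left out, 4 with the background filter and 6 with the median shift, which adds ALDH1A2. Over all transcript clusters the count was 2005, between 1611 with the methods' t-test and 2434 without high density replicate 2. The median shift moved all log2 fold changes by −0.04. Pathway genes called were 3 in most alternatives, 2 with the methods' t-test, 4 with the median shift and 1 with the background filter, which removes ALDH1A3 and ALDH8A1 from the test. Retinoic acid-induced genes called were 5 in all 12 alternatives.

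Signs turned for 3 genes that were not called, and the cause was not tested. CRABP1 had −0.0107 with the median shift and between −0.0386 and 0.0926 with a culture left out. RARG had 0.0485 with array weights and between −0.14 and 0.105 with a culture left out. RXRB had 0.0256 with array weights and between −0.118 and 0.0518 with a culture left out.

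Deviations from the group means of same-numbered cultures correlated by 0.05, −0.05 and −0.04. Cultures with unlike numbers gave values between −0.07 and 0.09. The methods do not say whether same-numbered cultures came from the same preparation, and these values cannot decide it. With the replicate number as a block 5 retinoid transcript clusters and 2020 of all were called. For genes below the background level at both densities, among them ALDH1A1, ALDH1A2, ALDH1A3, ALDH8A1, AOX1, CRABP1, CYP26A1, RARB, RARG and RXRG, the size of a change was not reliably measurable here.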
